A study of Homo sapiens with 6 samples.

Results

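The urea cycle turns ammonia into urea. CPS1 (carbamoyl phosphate synthetase 1) condenses ammonia and bicarbonate in the mitochondrion and needs N-acetylglutamate, the product of NAGS, as its activator. OTC joins carbamoyl phosphate to ornithine to make citrulline, ASS1 and ASL carry citrulline to arginine in the cytosol, and an arginase (ARG1 in hepatocytes, the mitochondrial ARG2 in many other cells) splits arginine into urea and ornithine. GLUD1 releases ammonia from glutamate in the mitochondrion, and GLUL fixes ammonia as glutamine. In liver the cycle enzymes are known for their high level in periportal hepatocytes and GLUL for its level in the hepatocytes around the central vein.

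These 9 genes were looked up in an RNA-seq table of 28563 genes from cells labelled HepG2, an established human line from a liver cancer. Cells on 3 plates received polydatin (PD, a glucoside of resveratrol found in plants) and cells on 3 other plates received DMSO, the solvent. The labels give the concentration of PD as 336 µM and the exposure as 24 h for both groups, while the paper states a lower concentration for PD. Each plate gave 1 poly(A) library, and all plates held the same cell line, so the spread between plates is not a spread between donors. The set was chosen by the measured FPKM of CPS1, which is abundant in the control libraries and about 2-fold lower with PD, so its level and its difference between the groups are given here as a description without a test. The other genes were listed by name for their place in the cycle. Of the 9 genes, 8 had a row in the table, and OTC was not analysed here.

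The libraries held 16308476 to 18071632 fragments, worked back from the deposited FPKM (fragments scaled for gene length and for the total of the library). The test was limma on log2(FPKM + 1), run on the 14400 genes whose mean over the libraries reached 0.5 FPKM, and a gene was called at a Benjamini-Hochberg adjusted p of at most 0.05. A gene that also changed by at least 2-fold was a DEG. The labelled cell type was checked against 20 hepatocyte genes. Of them 10 had a row, the others, ALB, AFP, APOB and TTR included, were not analysed here, and RBP4 was the only one to reach 1 FPKM in any library. The summed level of the hepatocyte genes was 1.41 to 1.53 FPKM in DMSO and 2.13 to 2.76 FPKM in PD. Of the other marker lists, 5 of 10 genes for intestinal epithelium, 4 of 5 for endothelium and 2 of 5 for leukocytes had a row. None of these reached 1 FPKM. Of the 6 fibroblast genes 4 had a row, and COL1A1 and PDGFRB reached 1 FPKM. The summed level of the fibroblast genes was 4.40 to 5.29 FPKM in DMSO and 4.75 to 5.05 FPKM in PD. Markers without a row were not analysed. The values below therefore describe cells in which 9 of the 10 hepatocyte genes analysed stayed under 1 FPKM, and the part of the markers in any difference was not tested.

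CPS1 was among the most abundant transcripts of the control cells and was the member with the greatest difference between the groups. The gene (ENSG00000021826, hg38 chr2:210477682-210679107, plus strand) had 222, 228 and 225 FPKM in the 3 DMSO libraries and 111, 108 and 106 FPKM in the 3 PD libraries. Every PD library lay below every DMSO library, and the libraries of a group lay close together. The DMSO mean was 225 ± 3.45 FPKM and the PD mean 109 ± 2.60 FPKM (SD, n = 3 for each), which is 48.3% of the DMSO level. The difference on the log2(FPKM + 1) scale was -1.04 with an SE of 0.03. In bulk RNA fewer cells that express a gene and less RNA per cell cannot be told apart.

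The depth behind these values was large. CPS1 was represented by 39980, 40003 and 40138 fragments in DMSO and by 20995, 19844 and 18061 fragments in PD. These counts were 0.231% to 0.239% of all fragments in DMSO and 0.111% to 0.116% in PD. Ranked by mean level, CPS1 was number 105 of 28563 genes in DMSO and number 302 in PD. The smallest gene length that reproduced whole fragments was 10444 bases, against 5760 bases for the reference transcript of CPS1 (the MANE transcript, the isoform agreed on by 2 annotation projects). The FPKM of CPS1 would therefore be higher per kilobase of that transcript.

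On the log2(FPKM + 1) scale a gap of this size was found in few of the tested genes and was not particular to CPS1. Of the 350 tested genes with a DMSO mean of at least 100 FPKM, 10 had a log2 difference of -1 or lower. Beside CPS1 these included C4BPB, CITED4, DDX21, KRT80, LPL, TOP2A, WNT10B and ENSG00000273760, named after their values had been seen. Of the 105 genes at or above the DMSO level of CPS1, 3 were lower by at least as much as CPS1, counting CPS1 itself and LPL, which encodes lipoprotein lipase. Over all levels, 195 of the 14400 tested genes had a difference as low as that of CPS1 or lower. The log2(FPKM + 1) scale understates the change of low genes, and a gene near the FPKM minimum cannot reach such a difference. The share among abundant genes therefore cannot be set against the share over all levels.

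**Figure D1:**
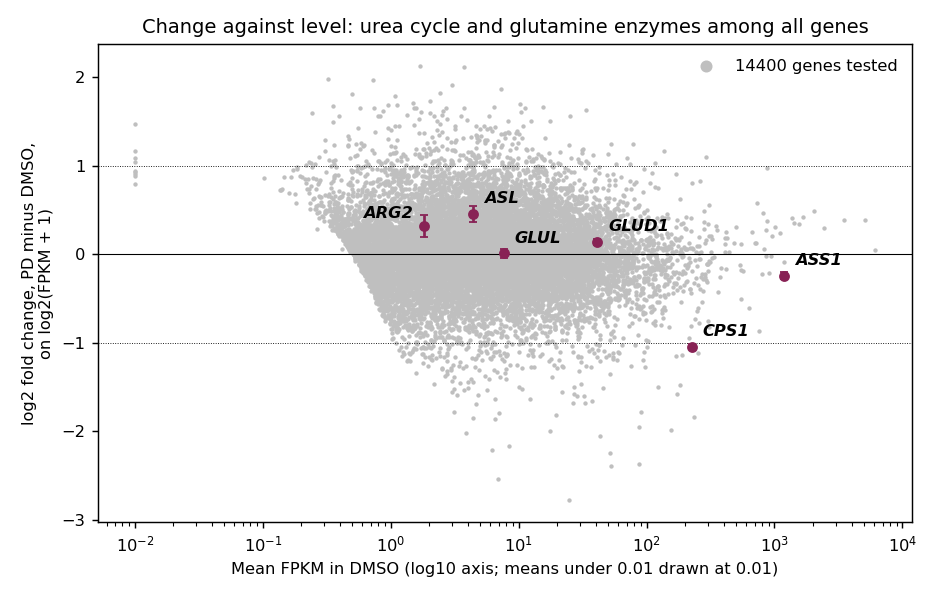
Log2 fold change, PD minus DMSO, on log2(FPKM + 1) against the mean FPKM in DMSO on a log10 axis for the 14400 tested genes (grey) and the 6 members above the FPKM minimum (purple, bars are ± 1 SE, n = 3 libraries per group). CPS1 lies at 225 FPKM and -1.04, next to the lower dotted line that marks a 2-fold change, and the other members lie between -0.24 and 0.45.

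The other enzymes had smaller differences, in both directions. Apart from CPS1, 5 of the other 8 genes reached the level needed for a test. ASS1 fell, ASL and GLUD1 rose, and ARG2 and GLUL were not called. Over all tested genes 26.2% were called lower and 31.9% were called higher, 58.1% in either direction, so 1 lower and 2 higher among 5 genes is a share near the background. None of the 5 was a DEG, against 2.04% of all genes for DEGs that rose and 1.57% for DEGs that fell. The median log2 fold change of the 5 genes was 0.14, beside 0.01 for all tested genes. The groups did not overlap for 3 of the 5 genes, and they did not overlap for 65.4% of all tested genes.

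ASS1, argininosuccinate synthetase, joins citrulline to aspartate and was the most abundant member. Its 3 DMSO libraries had 1143, 1189.6 and 1251 FPKM and its 3 PD libraries had 983, 1034 and 1007 FPKM. All PD libraries were below all DMSO libraries. The mean fell from 1194 ± 54.4 FPKM to 1008 ± 25.5 FPKM (SD, n = 3), to 84.4% of the DMSO level. The log2 fold change was -0.24 (SE 0.04, 95% interval -0.33 to -0.15, limma adjusted p = 0.0012). ASS1 was number 10 of all genes in DMSO and number 19 in PD. The genome carries 14 named pseudogenes of ASS1, of which 6 had a row, and the highest of these, ASS1P12, reached 0.476 FPKM in any library, so reads placed on these copies were few beside those on ASS1.

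ASL, argininosuccinate lyase, cleaves the product of ASS1 into arginine and fumarate. It had 5.00, 3.96 and 4.23 FPKM in DMSO and 6.96, 5.75 and 6.43 FPKM in PD. The lowest PD library was above the highest DMSO library. The mean rose from 4.40 ± 0.541 to 6.38 ± 0.608 FPKM (SD, n = 3), a log2 fold change of 0.45 (SE 0.09, 95% interval 0.24 to 0.67, limma adjusted p = 0.0039). The exons of ASL overlap those of ENSG00000249319 on the same strand, and the reads of the overlap cannot be assigned to either gene with certainty.

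Promoter sequences of ASS1, ASL and ARG1 are printed to show the base composition and core motifs found before the starts of cycle enzymes. Not every member is covered, and no relation to level was tested or is drawn. Each line holds the 250 bases before the start of the MANE transcript, 5′ to 3′ on the strand of the gene, read from hg38, at chr9:130444711-130444960 for ASS1, chr7:66075569-66075818 for ASL and chr6:131572976-131573225 for ARG1, all on the plus strand. Capitals mark matches to any of 5 motifs searched on both strands, the TATA box TATAAA, the CCAAT box CCAAT, the GC box GGGCGG, the C/EBP-ATF element TGATGNAA and the AP-1 element TGACTCA.
ASS1: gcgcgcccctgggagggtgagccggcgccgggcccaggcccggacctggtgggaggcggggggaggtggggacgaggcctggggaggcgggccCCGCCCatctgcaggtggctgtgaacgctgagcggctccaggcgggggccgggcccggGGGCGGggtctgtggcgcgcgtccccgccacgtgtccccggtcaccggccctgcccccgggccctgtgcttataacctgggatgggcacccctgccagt
ASL: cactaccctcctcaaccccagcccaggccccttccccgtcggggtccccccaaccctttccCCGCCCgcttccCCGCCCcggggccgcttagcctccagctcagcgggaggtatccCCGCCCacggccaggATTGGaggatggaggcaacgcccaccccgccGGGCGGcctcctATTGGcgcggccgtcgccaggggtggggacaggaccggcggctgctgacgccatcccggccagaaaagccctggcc
ARG1: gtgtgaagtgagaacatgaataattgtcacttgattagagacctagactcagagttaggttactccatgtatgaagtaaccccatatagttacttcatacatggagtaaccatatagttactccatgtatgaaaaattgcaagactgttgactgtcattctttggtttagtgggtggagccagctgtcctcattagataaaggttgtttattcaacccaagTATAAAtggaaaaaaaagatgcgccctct

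The window of ARG1 had a GC content of 37.6% and a TATA box 29 to 24 bases before the start. The window of OTC had a GC content of 40.4%, and its only match was a TATA box 192 to 187 bases before the start. The windows of ASS1 and ASL had GC contents of 78.8% and 74.0%, with 2 GC boxes in ASS1 and with 4 GC boxes and 2 CCAAT boxes in ASL. NAGS, ARG2, GLUD1 and GLUL lay between 65.6% and 80.4% GC. Over 34941 windows of the same length before RefSeq gene starts (GRCh38.p14), the median GC content was 58.0%, and a match was present in 10.8% for the TATA box, 32.0% for the CCAAT box, 42.5% for the GC box, 3.15% for the C/EBP-ATF element and 4.22% for the AP-1 element. A match describes letters in the window and says nothing of binding.

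The arginases were low. ARG1, the hepatocyte arginase, was represented by 1 fragment, the lowest count that fits its FPKM, in DMSO replicate 1 and by none in the other 5 libraries. A count of 0 allows up to 3 fragments, which was 0.0845 to 0.0937 FPKM in these libraries, so no fold change is given. ARG2, the mitochondrial arginase, had 1.80, 1.55 and 2.15 FPKM in DMSO and 2.56, 2.05 and 3.04 FPKM in PD. The highest DMSO library lay above the lowest PD library. The means were 1.83 ± 0.300 and 2.55 ± 0.495 FPKM (SD, n = 3), with a log2 fold change of 0.32 (SE 0.12, 95% interval 0.03 to 0.61) that was not called (limma adjusted p = 0.057). Between 63 and 89 fragments stood behind each DMSO value and between 87 and 120 behind each PD value, and VTI1B overlaps exons of ARG2 on the opposite strand. ARG2 was called without DMSO replicate 3 (log2 fold change 0.40, limma adjusted p = 0.039), without PD replicate 2 (0.43, limma adjusted p = 0.023) and by limma voom on fragments (0.46, adjusted p = 0.027).

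NAGS, which makes the activator of CPS1, was lower still. Its values were 0.410, 0.190 and 0.269 FPKM in DMSO and 0.510, 0.728 and 0.369 FPKM in PD, from 9 to 20 and from 17 to 36 fragments. The groups overlapped, and the mean of all libraries was under the level needed for a test. The means were 0.290 ± 0.111 and 0.536 ± 0.181 FPKM (SD, n = 3), a log2 difference of 0.25. In the fit without the FPKM filter this difference was not called (SE 0.11, limma adjusted p = 0.17). By limma voom on fragments, which took in NAGS, the log2 fold change was 0.88 (adjusted p = 0.032).

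The enzymes that make and fix ammonia differed little between the groups. GLUD1, glutamate dehydrogenase, had 41.8, 41.5 and 40.2 FPKM in DMSO and 45.3, 45.5 and 45.5 FPKM in PD. The groups did not overlap, although the gap was narrow. Its mean rose from 41.2 ± 0.852 to 45.4 ± 0.140 FPKM (SD, n = 3), a log2 fold change of 0.14 (SE 0.03, 95% interval 0.07 to 0.21, limma adjusted p = 0.0056). SHLD2 overlaps GLUD1 on the opposite strand, and 2 of the 6 named pseudogenes of GLUD1 had a row. The pseudogene GLUD1P3 fell from 4.84 ± 0.491 to 3.39 ± 0.194 FPKM (SD, n = 3), with a log2 fold change of -0.41 (limma adjusted p = 0.0027), so the rise of GLUD1 was not shared by this copy. GLUD2, the retrogene of GLUD1, had a mean of 0.125 FPKM in each group.

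GLUL, glutamine synthetase, had 7.40, 8.08 and 7.55 FPKM in DMSO and 7.60, 7.80 and 7.80 FPKM in PD. The PD libraries lay within the range of the DMSO libraries. The log2 fold change was 0.01 (SE 0.05, 95% interval -0.10 to 0.12, limma adjusted p = 0.87), and its sign turned with the scaling of the libraries, at -0.021 with median-of-ratios factors and -0.031 with the upper quartile.

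**Figure D2:**
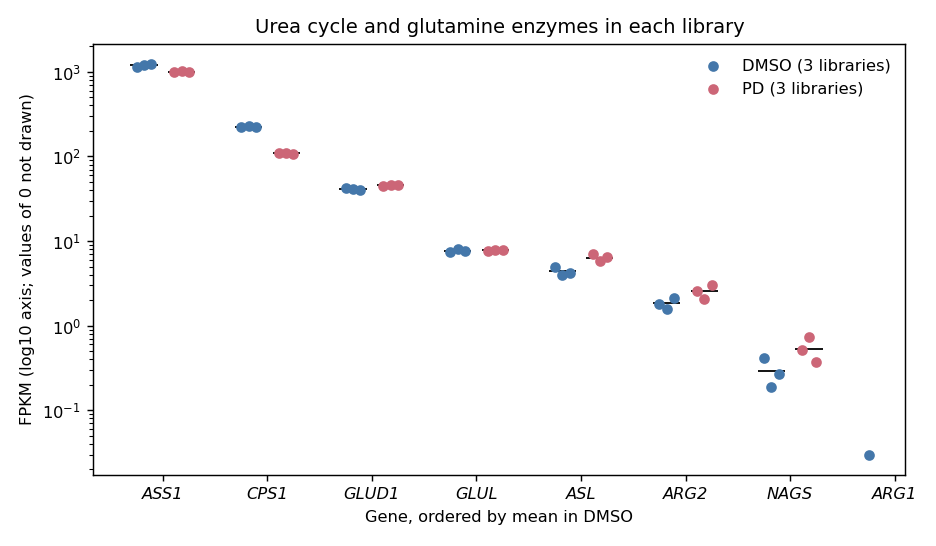
FPKM on a log10 axis for the 8 members with a row, ordered by their DMSO mean, with 1 point per library (3 DMSO, blue, and 3 PD, red) and bars at the group means. The points of CPS1 separate from 225 to 109 FPKM, those of GLUL lie together, and ARG1 has 1 point, from DMSO replicate 1, because values of 0 are not drawn.

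The order of the levels in FPKM was ASS1, CPS1, GLUD1, GLUL, ASL, ARG2, NAGS and ARG1 in both groups, and the ranges of neighbours did not overlap within a group. Because the counted gene lengths differ from the length of the main transcript, the order was also taken from the fragments scaled by the length of the MANE transcript in place of the counted length. On that scale the DMSO means were 2378 for ASS1, 408 for CPS1, 43.9 for GLUD1, 9.18 for GLUL, 6.56 for ASL, 2.32 for ARG2 and 0.387 for NAGS. The order in DMSO was the same. In PD, however, ASL (8.58 to 10.4) and GLUL (9.09 to 9.33) overlapped on that scale and their order cannot be given.

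Ratios within a library show how the balance of neighbouring steps differed between the groups, without any scaling between libraries. The FPKM ratio of ASS1 to CPS1 was 5.31 ± 0.225 in DMSO and 9.29 ± 0.395 in PD (SD, n = 3), and the ratio of ASS1 to ASL was 275 ± 40.4 and 159 ± 19.5. CAD carries the cytosolic carbamoyl phosphate synthetase, which starts pyrimidine synthesis and is fed by glutamine. The FPKM ratio of CPS1 to CAD was 5.75 ± 0.155 in DMSO and 2.67 ± 0.0667 in PD, while CAD itself was not called, with 39.1 ± 1.19 and 40.6 ± 0.541 FPKM (SD, n = 3) and a log2 fold change of 0.05 (limma adjusted p = 0.22). Both ratios that hold CPS1 carry the difference by which the set was chosen and are a description only. The groups did not overlap for the ratio of ASS1 to ASL.

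The 5 tested genes whose log2(FPKM + 1) followed CPS1 most closely over the 6 libraries were PDE8B, a phosphodiesterase of cyclic AMP (Pearson r = 0.9998), SCRN1 (0.9995), KPNA2, an importin (0.9995), TRA2B, a splicing factor (0.9995), and CDKN1B, an inhibitor of cyclin-dependent kinases (0.9994). Their PD levels were 50.1% of DMSO for CDKN1B, 56.4% for PDE8B, 57.8% for KPNA2, 59.9% for TRA2B and 74.0% for SCRN1. With 6 libraries in 2 groups such a correlation mostly records the gap between the groups, and 1837 of 14399 genes (12.8%) had an r of at least 0.95, so no p is given.

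Genes beside CPS1 on chromosome 2 were examined after the values had been seen. LANCL1, which lies just upstream of CPS1 on the other strand, rose from 15.2 ± 0.855 to 17.7 ± 1.03 FPKM (SD, n = 3), with a log2 fold change of 0.21 (limma adjusted p = 0.017). RPE, an enzyme of the pentose phosphate pathway further upstream, fell from 21.6 ± 1.16 to 16.8 ± 0.578 FPKM (SD, n = 3), with a log2 fold change of -0.34 (limma adjusted p = 7.9e-04). KANSL1L had 1.35 ± 0.201 and 1.10 ± 0.0992 FPKM and was not called (limma adjusted p = 0.19). The intronic transcript CPS1-IT1 stayed at or below 0.129 FPKM in each library. Other neighbours were under the level needed for a test, among them MAP2 with means of 0.0961 and 0.472 FPKM, KANSL1L-AS1 with 0.731 and 0.253 FPKM and LANCL1-AS1 with 0.387 and 0.173 FPKM in DMSO and PD. Of the 3 neighbours that were tested, RPE had the greatest log2 fold change.

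Among the carriers that pass urea cycle intermediates through the inner mitochondrial membrane, 4 of 6 listed genes were tested, and 1 rose, 1 fell and 2 were not called, a share near the background of 58.1%. SLC25A15, the ornithine and citrulline exchanger, rose from 8.12 ± 0.508 to 11.8 ± 0.462 FPKM (SD, n = 3), with a log2 fold change of 0.49 (limma adjusted p = 2.4e-04). SLC25A22, a glutamate carrier, fell with a log2 fold change of -0.21 (limma adjusted p = 0.0090). Both genes overlap a gene on the opposite strand. The aspartate and glutamate carriers SLC25A13 and SLC25A12 had log2 fold changes of 0.13 and -0.06 and were not called. Both enzymes that remove acyl groups from CPS1 in the mitochondrion rose, SIRT3 with a log2 fold change of 0.58 (limma adjusted p = 2.0e-04, 2.04 to 3.55 FPKM) and SIRT5 with 0.30 (limma adjusted p = 0.0050, 1.59 to 2.19 FPKM), and RIC8A overlaps SIRT3 on the opposite strand. Over all tested genes 31.9% were called higher, and 2 genes are too few to set against that share.

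On the log2(FPKM + 1) scale the enzymes that link ornithine with glutamate and proline held the only DEGs of the related lists. Over all tested genes 2.04% were DEGs that rose and 1.57% were DEGs that fell. The log2(FPKM + 1) scale understates low genes, and the FPKM means of some called genes of other lists also differed by more than 2-fold. Examples were CEBPA (4.89-fold higher), AXIN2 (2.96-fold lower), GPT (2.24-fold lower) and SLC38A5 (2.02-fold lower). The DMSO mean of CEBPA and the PD means of AXIN2 and GPT were under the FPKM minimum, so each passed it only through its other group. Of 7 listed genes 6 were tested, 4 rose and 2 were not called, with a median of 0.30 on the log2 scale, while 31.9% of all tested genes were called higher. OAT, ornithine aminotransferase, which draws on the ornithine that arginases release, had 10.1, 10.3 and 9.06 FPKM in DMSO and 22.2, 21.2 and 22.5 FPKM in PD. The groups lay far apart, and OAT was a DEG with a log2 fold change of 1.09 (SE 0.05, limma adjusted p = 7.3e-06). ALDH4A1, which oxidises the glutamate semialdehyde to glutamate, was the other DEG, at 0.957, 0.857 and 0.998 FPKM in DMSO and 3.48, 2.78 and 2.89 FPKM in PD. Its log2 fold change was 1.06 (SE 0.09, limma adjusted p = 5.1e-05), and without PD replicate 1 it was 0.99, below the 2-fold limit. With a pseudocount of 0.1 it was 1.60 and by voom 1.69, and the FPKM means differed 3.26-fold. PYCR3, a reductase of the proline pathway, rose with a log2 fold change of 0.43 (limma adjusted p = 0.0011).

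Under both rescalings of the libraries this list had 3 genes called higher and 1 called lower. PRODH, which starts proline breakdown, was under the level needed for a test, and its mean was 0.194 ± 0.0422 FPKM for DMSO and 0.714 ± 0.122 FPKM for PD (SD, n = 3). By limma voom on fragments, which took in PRODH, the log2 fold change was 1.87 (adjusted p = 3.2e-07), and without the FPKM filter it was 0.52 (limma adjusted p = 0.0038).

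The enzymes that use or make glutamine and glutamate were divided between the directions. Of 18 listed genes 16 were tested, 5 rose, 5 fell and 6 were not called, with a median of 0.03, a share near the 58.1% of all tested genes that were called. GPT was among those that fell, with means of 0.716 FPKM in DMSO and 0.320 FPKM in PD. It passed the FPKM minimum only through its DMSO libraries. ASNS, asparagine synthetase, rose from 107 ± 2.21 to 189 ± 2.52 FPKM (SD, n = 3), with a log2 fold change of 0.81 (limma adjusted p = 2.7e-06). It overlaps ENSG00000284707 on the same strand. GFPT2, which starts hexosamine synthesis with glutamine, rose from 15.4 ± 0.243 to 26.9 ± 1.90 FPKM (SD, n = 3), with a log2 fold change of 0.76 (limma adjusted p = 2.4e-05).

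Carriers of glutamine and arginine in the plasma membrane fell in most cases. Of 12 listed genes 9 were tested, 8 fell, none rose and 1 was not called, with a median of -0.36 (26.2% of all tested genes were called lower). SLC38A5 fell from 3.79 ± 0.268 to 1.88 ± 0.231 FPKM with a log2 fold change of -0.74, SLC7A6 from 6.08 ± 0.288 to 3.31 ± 0.202 FPKM with -0.72, and SLC7A1, a carrier of arginine, from 60.1 ± 0.578 to 42.6 ± 0.251 FPKM with -0.49 (SD, n = 3, limma adjusted p at most 2.1e-04). SLC7A6OS overlaps SLC7A6 on the opposite strand. SLC7A5, an exchanger that exports glutamine, was not called, with 931 ± 29.2 and 916 ± 25.6 FPKM (SD, n = 3, limma adjusted p = 0.55).

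Enzymes that take arginine or ornithine into polyamines, creatine and nitric oxide were mixed. Of 18 listed genes 13 were tested, 7 rose, 5 fell and 1 was not called, with a median of 0.12 (58.1% of all tested genes were called in either direction). GAMT, the last enzyme of creatine synthesis, rose with a log2 fold change of 0.78 (limma adjusted p = 8.8e-05) and SMOX, spermine oxidase, rose with 0.66 (limma adjusted p = 3.4e-05), while AMD1, which makes decarboxylated S-adenosylmethionine for polyamines, fell with -0.73 (limma adjusted p = 2.6e-04).

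In the lobule GLUL is known as a target of Wnt signalling, and a list of 12 perivenous and Wnt target genes was set beside it. Of these 5 were tested, 4 fell, none rose and 1 was not called, with a median of -0.24 (26.2% of all tested genes were called lower). The number called was 3 with the replicate number as a block, without the FPKM filter and in each fit that left out 1 library, and voom called 4 lower and 1 higher of 6 tested. NOTUM fell from 9.03 ± 0.243 to 5.03 ± 0.613 FPKM with a log2 fold change of -0.74 and AXIN2 fell from 1.46 ± 0.188 to 0.494 ± 0.0506 FPKM with -0.72 (SD, n = 3, limma adjusted p = 1.7e-04 and 4.8e-04), both negative regulators of the pathway, and TBX3 fell with -0.19 (limma adjusted p = 0.016). The PD mean of AXIN2 was under the FPKM minimum, so AXIN2 passed it only through its DMSO libraries. GLUL itself was not called, as given above. Of 8 periportal genes of amino acid breakdown HPD alone was tested, and it fell from 2.21 ± 0.272 to 1.24 ± 0.0256 FPKM (SD, n = 3), with a log2 fold change of -0.52 (limma adjusted p = 0.0014).

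Of 10 transcription factors known to bind promoters of urea cycle genes 6 were tested, 2 rose, 3 fell and 1 was not called, with a median of -0.09 (31.9% of all tested genes were called higher and 26.2% lower). CEBPA rose from 0.260 ± 0.0160 to 1.27 ± 0.0993 FPKM with a log2 fold change of 0.85 (SD, n = 3, limma adjusted p = 1.6e-04). Its DMSO mean was under the 0.5 FPKM minimum, so CEBPA passed only through its PD libraries and its call rests on them. NR3C1, the glucocorticoid receptor, fell from 18.5 ± 0.931 to 10.9 ± 0.635 FPKM with -0.72 (SD, n = 3, limma adjusted p = 4.1e-05), and CEBPB fell from 119.8 ± 3.64 to 92.6 ± 2.80 FPKM with -0.37 (SD, n = 3, limma adjusted p = 1.1e-04). HNF4A, which is high in hepatocytes, stayed under the level needed for a test. The part of any of these factors in the level of CPS1 was not tested.

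**Figure D3:**
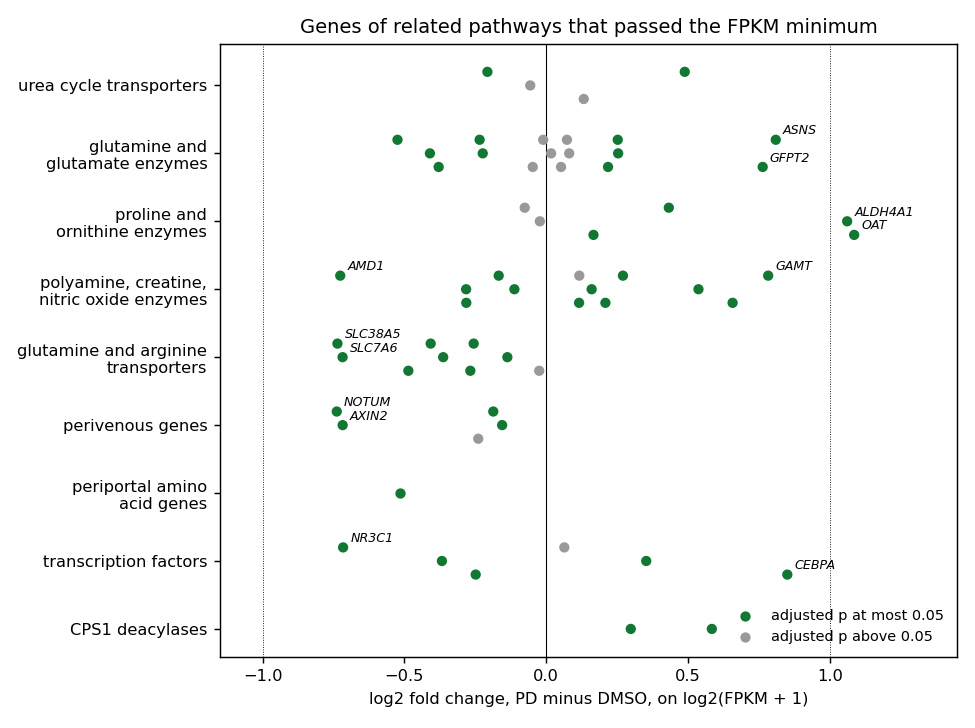
Log2 fold change, PD minus DMSO, on log2(FPKM + 1) for each tested gene of the 9 related lists, with 1 point per gene (green, adjusted p at most 0.05, grey, above it) and dotted lines at a 2-fold change. OAT and ALDH4A1 lie beyond the right dotted line, and the 9 carriers of glutamine and arginine lie at or left of -0.02.

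**Figure D4:**
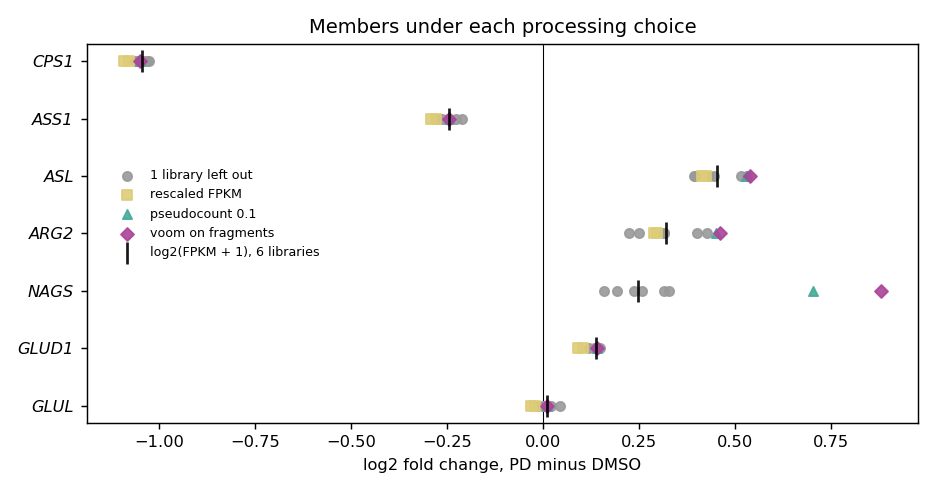
Log2 fold change of 7 members, PD minus DMSO, under each processing choice, with a black bar for log2(FPKM + 1) over 6 libraries, grey points for fits that leave out 1 library, squares for rescaled FPKM, triangles for a pseudocount of 0.1 and diamonds for voom on fragments. CPS1 lies between -1.09 and -1.03 throughout, and the spread is widest for NAGS, from 0.16 to 0.88.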

How the data were processed

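RNA from 3 PD-treated and 3 DMSO-treated plates of cells labelled HepG2 was sequenced after poly(A) selection and NEBNext Ultra library preparation. The submitters' processing notes name HISAT2, HTSeq 0.6.0 and the hg38 build. From the counts the authors computed FPKM, which they deposited for 28563 genes. Whether counting used strand, and which annotation was used, is not given in the sources used here, so overlapping genes are uncertain. Groups and replicate numbers came from the labels, and 0 value columns were left out.

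Gene symbols and positions came from GENCODE, matched by Ensembl identifier for 28161 genes. The FPKM were tested with limma 3.58.1 in R 4.3.3 on log2(FPKM + 1), without covariates and with a trended prior variance, over 14400 genes whose mean reached 0.5 FPKM, two-sided and with Benjamini-Hochberg adjustment over all of them. Fold changes on this scale understate the change of low genes. Intervals are 95% intervals of the fit. Whole fragments were worked back from FPKM steps, within 0.001 of a whole number, for all but 1 gene. For 12879 genes the annotated exon length gave them. For 15683 genes, all members with a row among them, the smallest length that gave whole fragments was taken. The counts of those genes are therefore the lowest that fit. The fragments describe depth (16308476 to 18071632 fragments per library) and feed voom. They limit counting error only. Library preparation used PCR, so fragments are not independent molecules. The procedure was also run on simulated data. There only genes well above the FPKM minimum were changed, all by more than 2-fold, and the spread had the same setting for every gene. That run says nothing of smaller changes or of low genes. P-values measure the spread between plates of 1 cell line.

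Members and lists were chosen with earlier results of these data known. Named were the members, every DEG and up to 3 of the greatest called changes in each related list, and the 5 genes most correlated with CPS1. CAD, PRODH, SLC7A5, SLC25A12, SLC25A13, HNF4A, abundant genes, and copies and neighbours of members were named after their values were seen. Some items that these rules take in are not reported here. The related lists were urea cycle transporters, glutamine and glutamate enzymes, proline and ornithine enzymes, polyamine, creatine and nitric oxide enzymes, plasma membrane transporters, perivenous genes, periportal genes, transcription factors and CPS1 deacylases. Promoter windows came from hg38, and motif shares from RefSeq promoters (GRCh38.p14). Alternatives were a pseudocount of 0.1, no FPKM filter, the replicate number as a block, leaving out each library, median-of-ratios and upper quartile scaling, and voom on genes with at least 10 fragments in at least 3 libraries.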

Additional observations from a re-analysis of the deposited data

How the results depend on the processing

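Of 214 values under alternative settings, 199 kept their direction and their side of the threshold, or for untested values and counts stayed within the replicate spread or 1.5 times. The FPKM of OTC were not analysed, and ARG1 was too low for a fold change, so neither has an alternative. A pseudocount of 0.1 raised the DEGs from 520 to 1248 (698 higher, 550 lower) and voom raised them to 1734 (1012 higher, 722 lower). The smaller pseudocount shrinks low genes less, and voom changed the input, the weights and the genes tested (15066) together. CPS1 was -1.08 with median-of-ratios and -1.09 with upper quartile scaling. Leaving out 1 library gave -1.06 to -1.03 for CPS1, 0.22 to 0.43 for ARG2, -0.013 to 0.044 for GLUL and 511 to 561 DEGs. ARG2 was called in 4 settings, by voom (0.46, limma adjusted p = 0.027), without DMSO replicate 3 (0.40, 0.039), without PD replicate 2 (0.43, 0.023) and with the replicate block (0.32, 0.013). GLUL turned to -0.021 with median-of-ratios and -0.031 with upper quartile scaling, and to -0.013 without DMSO replicate 1 and -0.0004 without DMSO replicate 3. NAGS was 0.71 with a pseudocount of 0.1 and 0.88 by voom, which called it (limma adjusted p = 0.032). Without the FPKM filter NAGS was 0.25 and was not called (limma adjusted p = 0.17). Voom called 4 urea cycle transporters instead of 2. Where no cause is given, the cause was not tested.

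Same-numbered libraries of the groups did not deviate together (correlations -0.03, -0.00 and 0.09), so the numbers were not taken as pairs. The replicate block gave 8032 called genes instead of 8368 and 518 DEGs. Rescaling shifted the split of called genes from 4588 higher and 3780 lower to 4259 and 4146 with median-of-ratios and to 4167 and 4264 with the upper quartile. The depth limits ARG1, NAGS and ARG2, whose counts were at most 120 fragments in any library.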
